A study of Saccharomyces cerevisiae with 15 samples.

Results

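The kinetochore and spindle checkpoint genes described here are AME1, OKP1, CTF19, MCM21, NDC80, NUF2, SLK19, MAD1, MAD2 and BUB1 of Saccharomyces cerevisiae. They were taken by gene symbol, from a list chosen with earlier results of these data known. Counts of these genes set beside shares of all genes are therefore descriptions, not tests. Each of the 10 has 1 probe set on the array, out of 5449 genes measured in all. Total RNA of mid-log cultures in YPD, a rich glucose medium, was hybridised to Affymetrix yeast arrays. The mutants were thp1∆ and sus1∆, each set against the wild type BY4742, and sac3∆, set against the wild type BY4741. There were 3 arrays per strain and 15 in all, which limits how precisely each value is known.

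All strains carry his3∆1, leu2∆0 and ura3∆0. BY4741 and sac3∆ also carry met15∆0, while BY4742, thp1∆ and sus1∆ carry lys2∆0. In each mutant the gene is replaced by the KanMX cassette, and each mutant is a single strain of the Euroscarf collection. The deleted genes code for subunits of THSC/TREX-2, a complex at the nuclear pore that couples transcription to mRNA export. Arrays of a strain are called biological replicates in the labels, with no statement of separate cultures, so the p-values measure only the spread between these samples.

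The kinetochore is the protein assembly that joins a centromere to the spindle microtubules. In budding yeast it is built outward from a nucleosome that holds the centromeric histone Cse4. Next to it lies the COMA group of Ame1, Okp1, Ctf19 and Mcm21, and beyond it the Mtw1 and Ndc80 complexes, the last of which grips the microtubule. The spindle assembly checkpoint, with Mad1, Mad2 and Bub1 among its proteins, holds back anaphase until every kinetochore is attached. Mad1 and Mad2 also reside at the nuclear pore. Slk19 is a kinetochore and spindle protein that acts with the separase Esp1 in the early anaphase release of the phosphatase Cdc14.

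Some features of the arrays bear on these genes. The deleted gene read 16.1 ± 3.34 units in thp1∆, 21.1 ± 1.91 in sus1∆ and 15.9 ± 0.788 in sac3∆ (SD, n = 3). The labels give mating type a for every strain, but the alpha-specific receptor gene STE3 averaged 8574 ± 1008 units in thp1∆ and 9322 ± 169 in sus1∆ against 6941 ± 326 in BY4742, and 186 ± 43.9 in sac3∆ against 410 ± 134 in BY4741 (SD, n = 3). The a-specific gene MFA2 averaged 11520 ± 357 in BY4741 and 16084 ± 1102 in sac3∆. It averaged 157 ± 10.1 in BY4742, 1025 ± 111 in thp1∆ and 270 ± 22.3 in sus1∆ (SD, n = 3). By these genes BY4742, thp1∆ and sus1∆ read as alpha, and BY4741 and sac3∆ as a. Comparisons of sac3∆ with thp1∆ or sus1∆ therefore also cross mating types. The median change of chromosome XVI genes was 0.86 on the log2 scale in thp1∆ (339 genes) and 0.51 in sac3∆ (340 genes), and 0.04 in sus1∆ (330 genes). Of the 10 genes only CTF19 lies on chromosome XVI. BY4741 replicate 3 had 862 empty cells, where the authors removed model outliers, against 0 to 22 in the others. SLK19 is empty in thp1∆ replicates 2 and 3. The ratio of 3′ to 5′ probe sets of the control gene SRB4 was 12.5 ± 5.95 in thp1∆ and 4.92 ± 0.294 in sus1∆ against 4.40 ± 0.197 in BY4742, and 10.4 ± 1.77 in sac3∆ against 6.51 ± 0.468 in BY4741 (SD, n = 3). In thp1∆ it was 19.3 in replicate 3 and 8.84 and 9.21 in the others. The other control genes differed less, with means in thp1∆ against BY4742 of 1.40 against 1.20 for ACT1, 2.23 against 1.79 for SPT15 and 2.56 against 1.62 for WBP1. In sac3∆ against BY4741 they were 1.40 against 1.29 for ACT1, 2.10 against 1.70 for SPT15 and 2.39 against 1.87 for WBP1. In sus1∆ they were 1.20 for ACT1, 1.87 for SPT15 and 1.73 for WBP1. The part of these ratios, which rise as RNA or its copies shorten, in the changes below was not tested.

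The values are model-based expression values in arbitrary units on a linear scale. A gene was tested where fewer than 50% of the 6 arrays compared lay under 600 units. It was called changed at a limma adjusted p under 0.05 with a change of at least 1.5-fold and a difference of means over 100 units. In thp1∆, AME1 and MAD1 rose. In sac3∆, AME1, MCM21, SLK19 and MAD1 rose. In sus1∆ none of the 10 genes was called. NDC80 had a larger log2 fold change than any other of the 10 genes in thp1∆ but was not tested, since its 3 wild-type values lay under 600 units.

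In thp1∆, 5 of the 10 genes passed the filter and 2 of the 5 were called up, beside 14.9% of all tested genes called up. In sac3∆, 6 passed and 4 were called up, beside 8.84% of all tested genes. SLK19, among the 4, passed the filter through its high sac3∆ arrays. In sus1∆, 5 passed and 0 were called in limma, beside 4.86% called in either direction, while 2 of the 5 had an unadjusted p under 0.05. Between the wild types, BY4742 against BY4741, 5 passed, 0 were called, beside 1.1%, and 0 had an unadjusted p under 0.05. No gene of the 10 was called down in any of these comparisons.

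As a description with no test, the median log2 fold change of all 10 genes, tested or not, was 0.45 in thp1∆, 0.60 in sac3∆ and 0.01 in sus1∆. Over all tested genes of the array the medians were 0.06, 0.06 and 0.03 in the same order. All mutant arrays lay above all wild-type arrays for 7 of the 10 genes in thp1∆, beside 42.9% of all genes on the array, and all lay below for 1, CTF19, beside 33.6%. Among the 7 is SLK19, which has only 1 measured thp1∆ array. In sac3∆ the mutant arrays lay above for 8 and below for 0, beside 25.1% and 20.4%. In sus1∆ they lay above for 3 and below for 3, beside 39.7% and 25.2%. In RNA of a whole culture, more cells in a stage that uses a gene and more RNA of that gene per cell cannot be told apart.

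**Figure D1:**
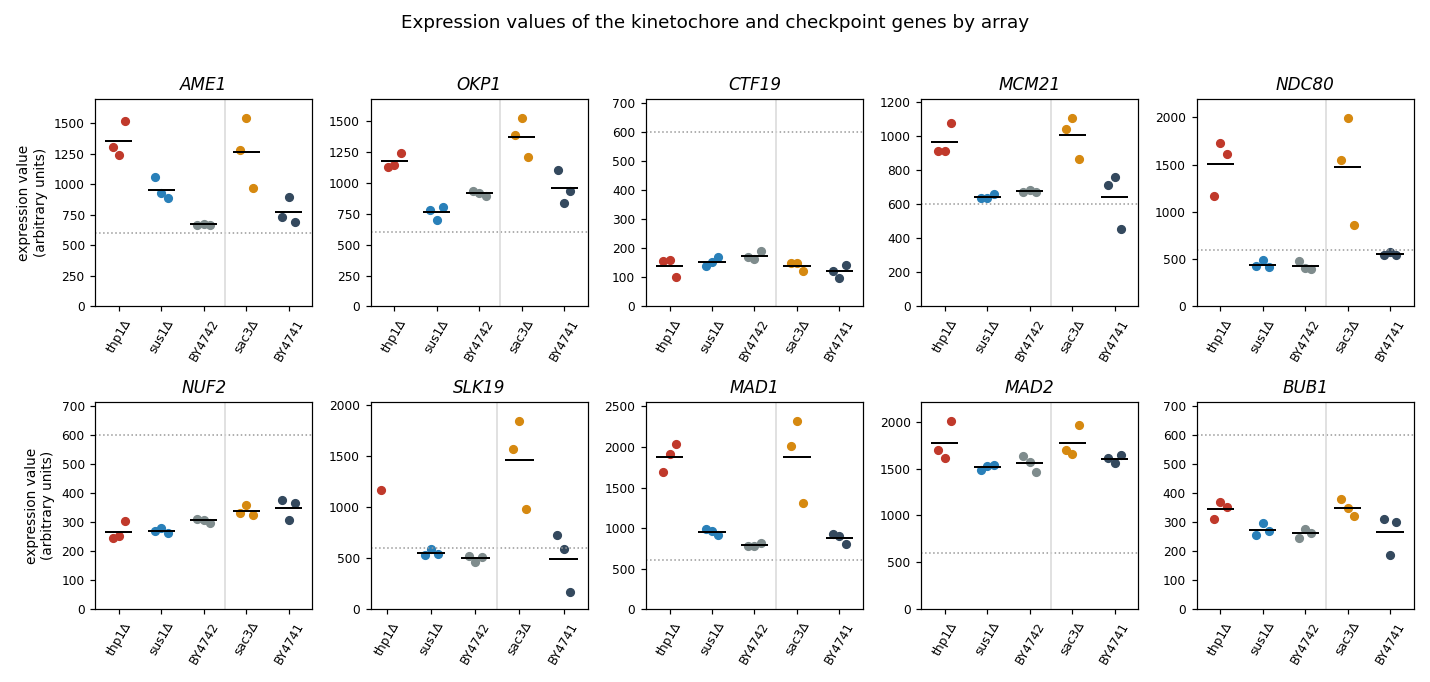
Expression values (arbitrary units, axes from 0) of the 10 genes in each of the 15 arrays, by strain, with a line at the mean of a strain with more than 1 value and a dotted line at 600 units. The thp1∆ and sac3∆ points of AME1, NDC80, SLK19 and MAD1 lie above those of their wild types, while CTF19, NUF2 and BUB1 stay under 600 units in all arrays.

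AME1 (YBR211C, chromosome II) codes for an essential subunit of COMA that contacts the Mtw1 complex. Its values were 1305, 1238 and 1513 in thp1∆ and 1056, 929 and 884 in sus1∆, against 669, 678 and 670 in BY4742. The 3 strains did not overlap, with thp1∆ at the top and the wild-type arrays close together. In sac3∆ its values were 1280, 1542 and 966, against 730, 897 and 690 in BY4741, also with no overlap. The log2 fold change was 1.00 ± 0.15 in thp1∆ (SE, limma adjusted p = 7.44e-05), a 2.00-fold rise that was called in all 16 alternative settings. Some of these, such as unadjusted p-values or the mean of its 1 probe set, could hardly lose the call. In sac3∆ the log2 fold change was 0.69 ± 0.15 (limma adjusted p = 0.00212), and the fold fell under the minimum without sac3∆ replicate 2 (0.54), with equal array medians (0.57) and with quantile normalization (0.58). In sus1∆ it was 0.50 ± 0.15 (limma adjusted p = 0.0215), a 1.42-fold difference that is under the fold minimum.

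OKP1 (YGR179C, chromosome VII) codes for the partner of Ame1, which binds the centromeric nucleosome. Its values were 1131, 1147 and 1245 in thp1∆ and 780, 698 and 805 in sus1∆, against 934, 921 and 891 in BY4742. Thus thp1∆ lay above the wild type in every array and sus1∆ below it in every array. In sac3∆ the values were 1389, 1524 and 1209, against 1106, 838 and 932 in BY4741, with sac3∆ higher throughout. The log2 fold change was 0.36 ± 0.10 in thp1∆ (limma adjusted p = 0.00888), 0.52 ± 0.10 in sac3∆ (limma adjusted p = 0.00124) and -0.27 ± 0.10 in sus1∆ (limma adjusted p = 0.0688). The first 2 passed the p-value but not the fold. OKP1 was called in sac3∆ only when BY4741 replicate 1 (0.63) or sac3∆ replicate 3 (0.61) was left out.

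MCM21 (YDR318W, chromosome IV) and CTF19 (YPL018W, chromosome XVI) code for the paired non-essential subunits of COMA, which are known for bringing cohesin to the centromere. MCM21 read 913, 916 and 1076 in thp1∆ and 637, 638 and 662 in sus1∆, against 674, 684 and 675 in BY4742. In sac3∆ it read 1041, 1108 and 869, against 711, 761 and 457 in BY4741. Both sets of values put thp1∆ and sac3∆ wholly above their wild types. The log2 fold change was 0.51 ± 0.15 in thp1∆ (limma adjusted p = 0.0113, 1.42-fold, not called), 0.67 ± 0.15 in sac3∆ (limma adjusted p = 0.00332, called) and -0.07 ± 0.15 in sus1∆ (limma adjusted p = 0.777). Without BY4741 replicate 3, the lowest of its strain, the sac3∆ change was 0.44 and not called. It was lost in 5 of 16 alternative settings, among them equal array medians (0.55) and a fit of only the 6 arrays compared (adjusted p = 0.0669).

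CTF19 read low in every strain. Its values were 157, 159 and 102 in thp1∆ and 139, 152 and 170 in sus1∆, against 172, 163 and 191 in BY4742. They were 151, 149 and 123 in sac3∆, against 124, 99.1 and 144 in BY4741. None passed the filter, so no test was made. LEU2, which is deleted in all 5 strains, read 65.6 to 236 units over the 15 arrays, and the brightest of 4 probe sets of the deleted URA3, array controls included, read 19.0 to 38.6. The CTF19 values lie within the LEU2 range over all arrays, but the upper part of that range comes from BY4741 (123 to 236). In BY4741 the CTF19 arrays are not shown to be above LEU2. In the other strains every CTF19 array lay above every LEU2 array of the same strain. There LEU2 read 65.6 to 83.5 in thp1∆, 97.9 to 136 in sus1∆, 84.1 to 131 in BY4742 and 68.4 to 109 in sac3∆. At these low values the changes of CTF19 are not set against those of chromosome XVI. The log2 fold changes were -0.36 ± 0.17 in thp1∆ (-0.15 without replicate 3), 0.21 ± 0.17 in sac3∆ (0.07 to 0.34 with each replicate left out) and -0.19 ± 0.17 in sus1∆. The wild types themselves differed by 0.53 ± 0.17, BY4742 above BY4741 with no overlap.

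NDC80 (YIL144W, chromosome IX) and NUF2 (YOL069W, chromosome XV) code for the paired arms of the Ndc80 complex whose heads bind the microtubule. NDC80 read 1171, 1724 and 1608 in thp1∆ and 429, 487 and 413 in sus1∆, against 479, 411 and 395 in BY4742. In sac3∆ it read 1551, 1992 and 866, against 542, 581 and 548 in BY4741. Every thp1∆ and sac3∆ array lay above every wild-type array, while sus1∆ overlapped with BY4742. The log2 fold change was 1.79 ± 0.23 in thp1∆ (3.47-fold) and 1.32 ± 0.23 in sac3∆ (2.49-fold), higher than in 99.6% of the tested genes in each comparison. In sus1∆ it was 0.05 ± 0.23.

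The filter removed NDC80 in thp1∆ and sac3∆ since exactly 3 of 6 values were under 600 units. With removal only above 50% of the arrays, a setting chosen after seeing the data, it was called in thp1∆ (limma adjusted p = 2.43e-05) and sac3∆ (limma adjusted p = 0.000562). Called genes then made up 16.6% of tested genes in thp1∆ and 9.56% in sac3∆ in the upward direction. With no filter it was also called in both, where 15.9% of all genes were called up and 9.22% down in thp1∆ and 8.74% up and 5.96% down in sac3∆. It was also called with any BY4742 array left out in thp1∆ or any BY4741 array left out in sac3∆. The share of low values then fell under 50%, so NDC80 passed the filter through its high mutant arrays. With any mutant array left out instead, the filter still removed NDC80 and there was no call. Without sac3∆ replicate 3, the lowest of its strain, its change in sac3∆ was 1.66.

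NUF2 read 245, 251 and 305 in thp1∆ and 269, 278 and 263 in sus1∆, against 310, 309 and 299 in BY4742. In sac3∆ it read 333, 358 and 324, against 376, 308 and 366 in BY4741. All values were under 600 units, and the log2 fold changes were -0.20 ± 0.09, -0.05 ± 0.09 and -0.18 ± 0.09 in thp1∆, sac3∆ and sus1∆. The sus1∆ arrays lay below BY4742 with no overlap, while thp1∆ and sac3∆ overlapped with their wild types.

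SLK19 (YOR195W, chromosome XV) had a larger called change in sac3∆ than the other 9 genes. It read 1567, 1849 and 982 in sac3∆, against 722, 588 and 169 in BY4741. The lowest sac3∆ array stood above the highest BY4741 array. SLK19 passed the filter because only 2 of 6 values were low, both in BY4741, through the high sac3∆ arrays. The log2 fold change was 1.77 ± 0.44 (limma adjusted p = 0.00676). Without BY4741 replicate 3, the lowest of its strain, it was 1.12 and still called (limma adjusted p = 0.00226). A fit of only the 6 arrays compared gave an adjusted p of 0.0676.

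In thp1∆ the only measured SLK19 value was 1172, with replicates 2 and 3 empty, against 521, 461 and 509 in BY4742. Its log2 fold change was 1.24 ± 0.62, with the lone array assumed to vary like the other groups, and it was not tested because of the filter. In sus1∆ it read 529, 594 and 539, a log2 fold change of 0.16 ± 0.44, and was not tested either. TOA1, for a subunit of the transcription factor TFIIA, is its annotated neighbour on one side and was called up in thp1∆ (0.79) and sac3∆ (0.78). LIP5, its neighbour on the other side, was not called in either mutant (0.08 and 0.13).

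MAD1 (YGL086W, chromosome VII) codes for the checkpoint protein that recruits Mad2 to unattached kinetochores. It read 1696, 1910 and 2039 in thp1∆ and 989, 958 and 910 in sus1∆, against 777, 775 and 814 in BY4742. In sac3∆ it read 2007, 2326 and 1305, against 925, 896 and 797 in BY4741. The mutant arrays lay above the wild-type arrays in all 3 comparisons. The log2 fold change was 1.25 ± 0.16 in thp1∆ (limma adjusted p = 2.02e-05, 2.38-fold) and 1.07 ± 0.16 in sac3∆ (limma adjusted p = 0.000164, 2.10-fold). In sus1∆ it was 0.27 ± 0.16 (limma adjusted p = 0.226). Its calls in thp1∆ and sac3∆ held in all 16 alternative settings of each comparison, with ranges of 1.13 to 1.32 and 0.89 to 1.31. As for AME1, some of these settings could hardly lose the calls.

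MAD2 (YJL030W, chromosome X), for the protein that binds and restrains Cdc20, was tested in every comparison and not called. It read 1698, 1611 and 2014 in thp1∆ and 1491, 1533 and 1542 in sus1∆, against 1635, 1573 and 1461 in BY4742. In sac3∆ it read 1696, 1656 and 1963, against 1611, 1559 and 1645 in BY4741. The thp1∆ and sus1∆ values overlapped with the wild type, and sac3∆ stood just above it. The log2 fold changes were 0.18 ± 0.09, 0.14 ± 0.09 and -0.03 ± 0.09 in thp1∆, sac3∆ and sus1∆ (limma adjusted p = 0.0774, 0.201 and 0.832). Their 95% intervals reach 0.37, 0.32 and 0.15 at the upper end.

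BUB1 (YGR188C, chromosome VII), for the checkpoint kinase that marks centromeric chromatin for shugoshin, stayed under 600 units throughout and was not tested. It read 311, 368 and 351 in thp1∆ and 255, 298 and 269 in sus1∆, against 246, 275 and 261 in BY4742. In sac3∆ it read 380, 349 and 320, against 310, 185 and 301 in BY4741. Both thp1∆ and sac3∆ lay above their wild types without overlap. The log2 fold changes were 0.39 ± 0.16 in thp1∆, 0.43 ± 0.16 in sac3∆ and 0.07 ± 0.16 in sus1∆. Without BY4741 replicate 2 the sac3∆ value was 0.19.

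**Figure D2:**
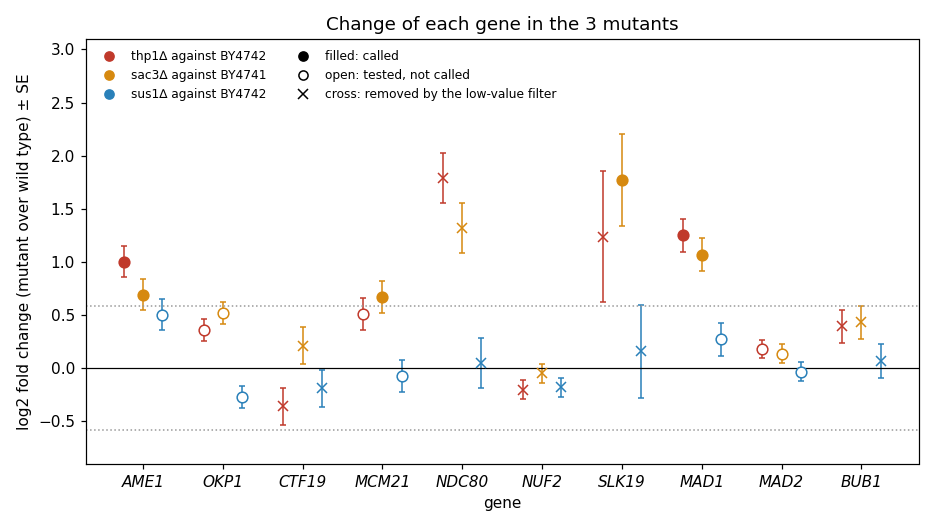
Log2 fold change (± SE) of the 10 genes in thp1∆ and sus1∆ against BY4742 and in sac3∆ against BY4741, with dotted lines at a 1.5-fold change. Filled points were called, open points were tested and not called, and crosses did not pass the filter on low values. AME1 and MAD1 are filled in thp1∆, and AME1, MCM21, SLK19 and MAD1 in sac3∆.

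For genes whose products work as a pair, the ratio of the values was followed across arrays. Since a ratio of 2 probe sets has no absolute meaning, only its change between strains is given. The ratio of NDC80 to NUF2 was higher by 1.99 on the log2 scale in thp1∆, by 1.37 in sac3∆ and by 0.23 in sus1∆, with no overlap between mutant and wild-type arrays in each. The ratio of MAD1 to MAD2 was higher by 1.07, 0.93 and 0.30 in the same order, again with no overlap. The ratio of AME1 to OKP1 was higher by 0.64 in thp1∆ and 0.77 in sus1∆ without overlap, and by 0.17 in sac3∆, where the arrays overlapped. In sus1∆ AME1 stood at 0.50 and OKP1 at -0.27. The ratio of CTF19 to MCM21 changed by -0.87 in thp1∆ without overlap, and by -0.46 in sac3∆ and -0.12 in sus1∆ with overlap. The ratio of MAD1 to BUB1 was higher by 0.86 in thp1∆ and 0.20 in sus1∆ without overlap. In sac3∆ it was higher by 0.64, and the arrays overlapped. NUF2, CTF19 and BUB1 lay under 600 units in every array. These ratio changes are descriptions, with no test.

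**Figure D3:**
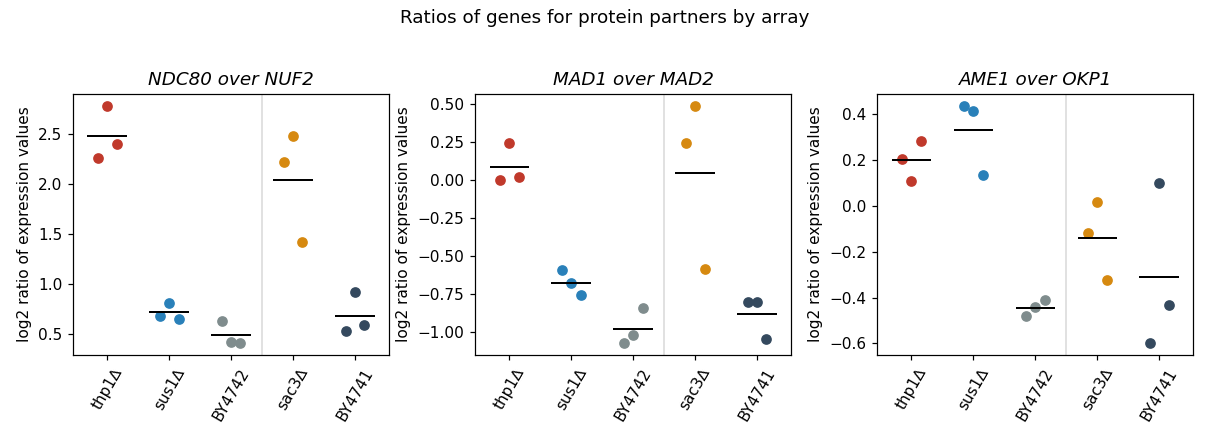
Log2 ratio of the expression values of NDC80 to NUF2, MAD1 to MAD2 and AME1 to OKP1 in each array, with a line at the mean of each strain; only differences between strains can be read from the axis. The NDC80 to NUF2 ratio averaged 2.48 in thp1∆ and 0.71 in sus1∆ against 0.48 in BY4742, and 2.04 in sac3∆ against 0.67 in BY4741.

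Whether the mutants differed from each other was tested by the difference of their changes in the same limma fit, called at an adjusted p under 0.05 and at least 1.5-fold. Since thp1∆ and sus1∆ share the BY4742 arrays, their difference rests on the mutant arrays alone. Between thp1∆ and sus1∆, 5 genes of the 10 were tested and 2 of the 5 differed, beside 17.2% of all genes tested for it. They were MAD1 (0.98 ± 0.16, limma adjusted p = 0.000189) and OKP1 (0.63 ± 0.10, limma adjusted p = 0.000228), both with the larger change in thp1∆. The OKP1 difference fell under 1.5-fold without sus1∆ replicate 2 (0.57), with equal array medians (0.58) and with quantile normalization (0.58). AME1 (0.50 ± 0.15, limma adjusted p = 0.0119) and MCM21 (0.58 ± 0.15, limma adjusted p = 0.00627) passed the p-value but not the fold. MCM21 was called without thp1∆ replicate 1 (0.62), thp1∆ replicate 2 (0.62) or sus1∆ replicate 3 (0.60).

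Between sac3∆ and sus1∆, 5 genes of the 10 were tested and 3 of the 5 differed, beside 13.7% of all genes tested for it. The changes were larger in sac3∆ for OKP1 (0.79 ± 0.15, limma adjusted p = 0.00167), MCM21 (0.74 ± 0.22, limma adjusted p = 0.0198) and MAD1 (0.80 ± 0.22, limma adjusted p = 0.0159). Without BY4741 replicate 3 the MCM21 difference was 0.51 and was not called. NDC80 was not tested here because of the filter. With no filter its change was larger by 1.74 in thp1∆ than in sus1∆ (limma adjusted p = 4.05e-05) and larger by 1.27 in sac3∆ than in sus1∆ (limma adjusted p = 0.0103).

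Between thp1∆ and sac3∆, 5 genes of the 10 were tested and 0 of the 5 differed in limma, beside 6.41% of all genes tested for it. None of the 5 had an unadjusted p under 0.05. The differences, thp1∆ minus sac3∆, were 0.31 for AME1 (95% interval -0.14 to 0.76), -0.16 for OKP1 (-0.48 to 0.15) and -0.16 for MCM21 (-0.63 to 0.31). For MAD1 the difference was 0.18 (-0.30 to 0.66) and for MAD2 0.05 (-0.22 to 0.31). Intervals of this width do not show that the mutants act alike.

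The arrays of a strain also differed among themselves across these genes. In sac3∆, replicate 3 gave the lowest value for 9 of the 10 genes, where 44.9% of all genes on the array were lowest in that replicate. In thp1∆, replicate 1 was lowest for 6 of the 9 genes with 3 values, where 34.1% of all genes were lowest there. Across arrays, the values of MAD1 ran close to those of NDC80 (Pearson's r 0.97 over 15 arrays on the log2 scale), AME1 (0.94) and MCM21 (0.89), and not to NUF2 (-0.08). Those arrays share the strain differences, so these are descriptions only. Among all genes, the 3 nearest to MAD1 were LEO1, for a subunit of the Paf1 transcription elongation complex (0.99), EAF7, for a subunit of the NuA4 acetyltransferase (0.99), and the phosphatase gene YMR1 (0.99). The 3 nearest to SLK19 over its 13 measured arrays were NOP4 (0.98), MCM21 (0.98) and JIP5 (0.97), and NOP4 and JIP5 lie on chromosome XVI. SLK19 and MCM21 both had their lowest value of all arrays in BY4741 replicate 3 (169 and 457 units). Correlations without that array are not given.

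Annotated gene length was not evenly spread over the group, with 591 bases for MAD2 and 3066 for BUB1. Spearman's rho between length and log2 fold change over the 10 genes was 0.46 in thp1∆, 0.42 in sac3∆ and 0.29 in sus1∆, a description of genes that share the same arrays.

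A further 50 genes of the kinetochore, checkpoint, chromosomal passenger complex and anaphase release pathway were on the array. In thp1∆, 27 passed the filter, 7 were called up and 1 down, beside 14.9% and 6.17% of all tested genes. In sac3∆, 34 passed, 6 were called up and 0 down, beside 8.84% and 3.25%. In sus1∆, 28 passed and 0 were called in limma, beside 4.86% in either direction, while 7 had an unadjusted p under 0.05. The median log2 fold change of the tested genes was 0.22 in thp1∆, 0.34 in sac3∆ and -0.02 in sus1∆.

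SPO12, DAD4 and CDC5 were called up in both thp1∆ and sac3∆. SPO12, for a protein that helps release Cdc14, averaged 2055 units in thp1∆ against 1016 in BY4742, and 2011 in sac3∆ against 996 in BY4741. Its log2 fold change was 1.01 ± 0.10 in thp1∆ and 1.02 ± 0.10 in sac3∆ (limma adjusted p = 2.20e-06 and 7.71e-06). The polo kinase gene CDC5 changed by 0.93 ± 0.16 in thp1∆ and 1.12 ± 0.16 in sac3∆ (limma adjusted p = 0.000239 and 0.000118). DAD4, for a subunit of the Dam1 ring around the microtubule, changed by 1.08 ± 0.26 in thp1∆ and 0.92 ± 0.26 in sac3∆ (limma adjusted p = 0.00312 and 0.0116), and its sac3∆ and BY4741 arrays overlapped.

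The other genes called up in thp1∆ were the securin gene PDS1 (0.74), CHL4 of the Ctf19 complex (0.68), SPC105 for the scaffold that holds the checkpoint proteins (0.63) and the Dam1 complex gene DUO1 (0.60). SPC25, of the Ndc80 complex, fell by 0.63 in thp1∆, to a mean of 693 units in thp1∆ against 1067 in BY4742. In sac3∆ the others were MIF2 for the inner kinetochore protein that binds the centromeric nucleosome (0.96), NDC10 for a centromere DNA-binding protein (0.77, listed as CBF2 in RefSeq) and the checkpoint kinase gene MPS1 (0.61). MIF2 read 895, 894 and 859 in sac3∆, against 520 and 394 in BY4741, where replicate 3 was empty. It passed the filter because only 2 of 5 values were low, through the high sac3∆ arrays and the empty cell.

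Counted by complex and read beside the shares over all tested genes above, the genes called in thp1∆ were 0 of 1 tested in the centromeric nucleosome, CBF3 and Mif2 group, 1 of 1 in the remaining Ctf19 complex and 2 of 5 in the remaining Ndc80, Mtw1 and Spc105 complexes (1 up and 1 down). They were 2 of 8 in the Dam1 complex, 1 of 5 in the remaining checkpoint genes and their targets, 0 of 1 in the chromosomal passenger complex and 2 of 6 in the anaphase release group. In sac3∆ the counts in the same order were 2 of 4, 0 of 4, 0 of 4, 1 of 9, 1 of 6, 0 of 1 and 2 of 6.

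**Figure D4:**
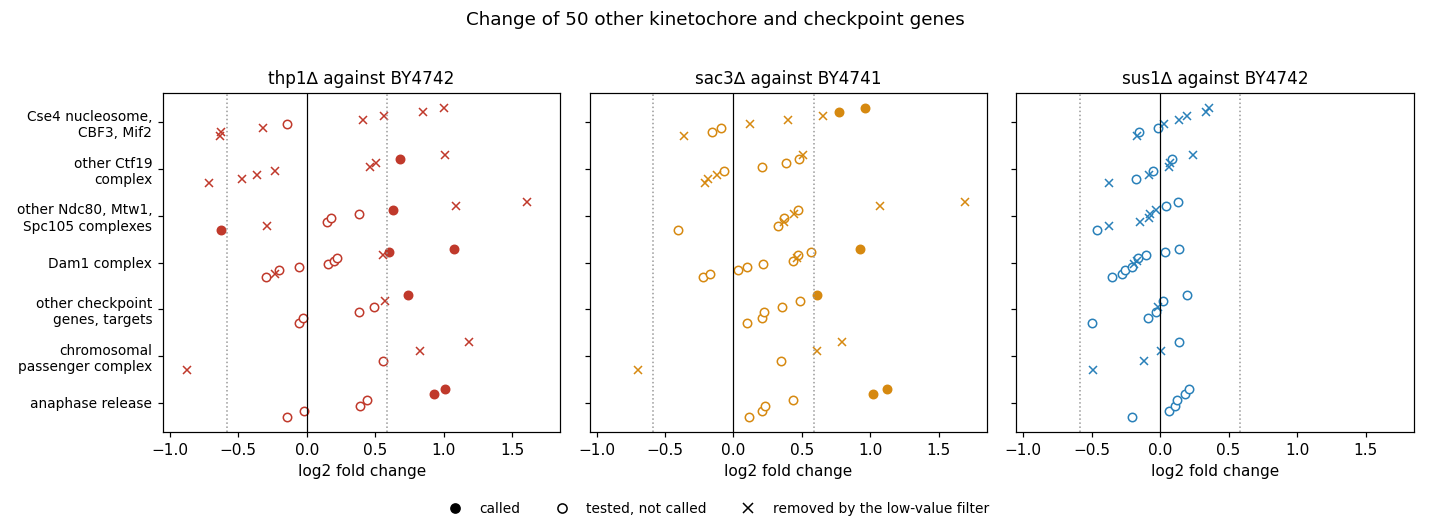
Log2 fold change of the 50 other kinetochore and checkpoint genes by complex, in thp1∆ against BY4742, sac3∆ against BY4741 and sus1∆ against BY4742, with dotted lines at a 1.5-fold change. Filled points, which were called, number 8 in thp1∆, 6 in sac3∆ and 0 in sus1∆, and crosses did not pass the filter on low values.

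Several of these genes are used in a particular cell cycle stage, so markers of each stage were set beside them. All marker counts are read beside the shares of all tested genes. These were 14.9% called up in thp1∆, 8.84% called up in sac3∆ and 4.86% called in either direction in sus1∆. Of the G2/M markers, 4 of 10 tested were called up in thp1∆ and 2 of 11 in sac3∆, and in sus1∆ 0 of 8 were called up and CLB2 was called down. The summed values of these 11 markers ranged from 17728 to 18876 units in thp1∆ and from 11288 to 12775 in sus1∆, against 12830 to 13086 in BY4742. In sac3∆ they ranged from 19427 to 22028, against 11296 to 16525 in the 2 BY4741 arrays with all markers measured. Those called were CDC5, MYO1, and the chromosome XVI genes CLB2 and IQG1 in thp1∆, and CDC5 and IQG1 in sac3∆.

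Of the G1/S markers, 3 of 11 tested were called up in thp1∆ and 7 of 12 in sac3∆, and in sus1∆ 0 of 10 were called up and the cyclin gene CLN1 was called down. The 12 markers include CLN2 and CLB5 of chromosome XVI. Their summed values ranged from 23087 to 25654 in thp1∆ and from 18288 to 19091 in sus1∆, against 17548 to 18433 in BY4742. In sac3∆ they ranged from 28838 to 30602, against 14427 to 21323 in 2 BY4741 arrays. Of the 7 histone genes of S phase 0 were called in any mutant in limma, and 2 in thp1∆, 6 in sac3∆ and 4 in sus1∆ had an unadjusted p under 0.05. Their sums were 77206 to 81540 in thp1∆ and 76725 to 77338 in sus1∆, against 71052 to 71992 in BY4742, and 78960 to 83026 in sac3∆ against 73192 to 74902 in 2 BY4741 arrays.

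Of the M/G1 markers, 1 of 10 was called up in thp1∆, 4 of 11 in sac3∆ and 0 of 10 in sus1∆, where 7 had an unadjusted p under 0.05. The marker counts of unadjusted p-values have no share over all genes beside them here. The M/G1 sums were 56541 to 62163 in thp1∆ and 53602 to 56861 in sus1∆, against 45093 to 45763 in BY4742, and 49822 to 61864 in sac3∆ against 47183 to 50336 in 2 BY4741 arrays. None of the G1/S or G2/M markers was at 0 in any array. With the chromosome XVI genes left out, the G2/M sums were 12958 to 13741 in thp1∆ and 9256 to 10482 in sus1∆ against 10270 to 10374 in BY4742, and 15703 to 17434 in sac3∆ against 9288 to 13438 in BY4741. The G1/S sums without them were 18060 to 20073 in thp1∆ and 16466 to 17283 in sus1∆ against 15567 to 16274 in BY4742, and 23391 to 25751 in sac3∆ against 12755 to 18972 in 2 BY4741 arrays. The part of the cell cycle stage in the changes of the kinetochore and checkpoint genes was not tested.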

How the data were processed

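The authors computed the deposited intensity values with dChip (version not given in the sources used here), by invariant set normalization and modelling of perfect-match probes, and left outliers empty. Of 5900 probe sets, 137 were array controls, 5498 had 1 gene and 265 others had none. Where a gene had several sets (47 genes), the one brightest on average was used. Gene names, lengths and order came from RefSeq assembly R64.

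Log2 values of all 15 arrays were fitted with limma 3.58.1 in R 4.3.3 (5 groups, eBayes, 2.88 prior degrees of freedom), with no further scaling. Benjamini-Hochberg adjustment ran over all tested genes. The filter, fold and difference minimum follow the study's methods, where p-values were not adjusted. The fit was tested on simulated data.

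The genes and lists were chosen with earlier results of these data known. All 10 genes were named in each comparison, and other pathway genes where called. Alternatives were scaling, filter, log2(value + 50), unadjusted p-values, replicate block, centring by chromosome, the mean of probe sets, only the arrays compared, and each replicate left out. Same-numbered arrays deviated together in sus1∆ and BY4742 (correlations of 0.19, 0.13 and 0.11 for replicates 1, 2 and 3). In sac3∆ and BY4741 the correlations were 0.28, 0.05 and 0.27 in the same order. They were below 0 in thp1∆ and BY4742 (-0.106, -0.134 and -0.075) and between the wild types (-0.12, -0.19 and -0.054).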

Additional observations from a re-analysis of the deposited data

Results flagged for a closer look

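The following genes differed in their change between mutants, either by the test of the difference in limma or because every array of the mutants lay on opposite sides of their wild-type means. By the test, MAD1 differed by 0.98 on the log2 scale and OKP1 by 0.63 between thp1∆ and sus1∆, with the larger change in thp1∆. Between sac3∆ and sus1∆, OKP1 differed by 0.79, MAD1 by 0.80 and MCM21 by 0.74, with the larger change in sac3∆.

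For CTF19, every thp1∆ array lay below the mean of BY4742 and every sac3∆ array above the mean of BY4741, and the changes differed by -0.57, thp1∆ minus sac3∆. Every sus1∆ array also lay below BY4742, and the changes differed by 0.40, sac3∆ minus sus1∆. These CTF19 differences were not tested, since all of its values lay under the filter, and with no filter they did not pass in limma (adjusted p = 0.111 and 0.223). CTF19 averaged 139 ± 32.4 units in thp1∆ and 154 ± 15.5 in sus1∆ against 175 ± 14.3 in BY4742, and 141 ± 15.8 in sac3∆ against 122 ± 22.6 in BY4741 (SD, n = 3). All of these lie within the 65.6 to 236 units read by the deleted LEU2 over all arrays. Within a strain, the CTF19 and LEU2 arrays overlapped only in BY4741. The thp1∆ and sac3∆ means of CTF19 lie closer to each other than those of their wild types.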

How the results depend on the processing

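The number of the 10 genes called in sac3∆ was 4, and 2 with quantile normalization and 2 with only the arrays compared. It ranged from 3 to 6 with each replicate left out. In thp1∆ it was 2, and 2 to 3 with each replicate left out, and in sus1∆ 0 throughout. Of the 50 other genes, 8 were called in thp1∆, but 5 with equal array medians, 5 with quantile normalization, 19 with no filter and 14 with the filter applied above 50% of arrays, and 8 to 14 with each replicate left out (13 without BY4742 replicate 1 and 14 without replicate 2 or 3). In sac3∆ 6 were called, 12 with no filter, and 4 to 10 with each replicate left out (10 without BY4741 replicate 1). In sus1∆ 0 were called, and 1 with quantile normalization. The number of the 10 genes that differed between thp1∆ and sus1∆ was 2, and 1 with equal array medians, 1 with quantile normalization and 1 to 3 with each replicate left out. Between sac3∆ and sus1∆ it was 3, and 2 to 3. With a wild-type array left out, genes low in all wild-type arrays can pass the filter through their high mutant arrays, as described for NDC80. The part of this in the shifts, and any other cause, was not tested. With the replicate block the counts were 2, 4 and 0 of the 10 genes in thp1∆, sac3∆ and sus1∆ and 8, 6 and 0 of the other 50, and no count moved.

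Some uncalled log2 values turned sign when each replicate was left out. MAD2 in sus1∆ ranged from -0.0754 to 0.00568 (above 0 without BY4742 replicate 1). Between BY4742 and BY4741, OKP1 ranged from -0.15 to 0.0502 (above 0 without BY4741 replicate 1) and MCM21 from -0.118 to 0.250 (below 0 without BY4741 replicate 3). The difference between thp1∆ and sac3∆ ranged from -0.302 to 0.0660 for MCM21 (above 0 without BY4741 replicate 3), from -0.0605 to 0.356 for MAD1 (below 0 without sac3∆ replicate 3) and from -0.0494 to 0.121 for MAD2 (below 0 without sac3∆ replicate 2 or thp1∆ replicate 3). Among genes removed by the filter, the ranges were -0.394 to 0.655 for SLK19 and -0.230 to 0.144 for BUB1 between BY4742 and BY4741, -0.0220 to 0.131 for NDC80 in sus1∆ and -0.137 to 0.00866 for NUF2 in sac3∆. For the difference between thp1∆ and sac3∆ they were -0.929 to 0.120 for SLK19 and -0.170 to 0.204 for BUB1, and between thp1∆ and sus1∆ -0.280 to 0.0418 for CTF19 and -0.120 to 0.0372 for NUF2.

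Equal array medians moved the median log2 fold change of all genes by -0.12 in thp1∆, -0.12 in sac3∆ and -0.08 in sus1∆. CTF19, NUF2 and BUB1 lay under 600 units in all arrays and have no test in any comparison. SLK19 in thp1∆ rests on 1 array.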

Other observations

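Some kinetochore and chromosomal passenger genes with clear array separation did not pass the filter on low values. Those named here rose in thp1∆ and sac3∆, and they were chosen after their values were seen. Other genes that did not pass fell. In the chromosomal passenger complex the lowest change was -0.88 in thp1∆ and -0.70 in sac3∆, both for NBL1. In thp1∆ the lowest was -0.72 in the remaining Ctf19 complex and -0.64 in the centromeric nucleosome, CBF3 and Mif2 group. KRE28, for the partner of Spc105, averaged 815 units in thp1∆ against 267 in BY4742, and 798 in sac3∆ against 262 in BY4741. With no filter its log2 fold change was 1.60 ± 0.27 in thp1∆ (limma adjusted p = 0.00019) and 1.69 ± 0.27 in sac3∆ (limma adjusted p = 0.000266), and -0.08 ± 0.27 in sus1∆ (limma adjusted p = 0.863).

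MTW1, of the complex that links COMA to Ndc80, averaged 614 units in thp1∆ against 288 in BY4742, and 665 in sac3∆ against 318 in BY4741, with no overlap in either. SLI15, for the partner of the Aurora kinase Ipl1, averaged 977 units in thp1∆ against 431 in BY4742, and 807 in sac3∆ against 468 in BY4741, also with no overlap. With no filter, 14 of the 50 other genes were called up and 5 down in thp1∆, and 11 up and 1 down in sac3∆. Over all genes under the same setting, 15.9% were called up and 9.22% down in thp1∆, and 8.74% up and 5.96% down in sac3∆.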
